A study of Mus musculus with 2 samples.

Results

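The genes described here are 33 integrins and leukocyte adhesion molecules, taken by symbol from the 31053 genes of the deposited count tables. They comprise 15 integrin α subunits, 8 integrin β subunits, the 3 immunoglobulin-type ligands Icam1, Icam2 and Vcam1, P-selectin (Selp) with its ligand Selplg, the 3 junctional molecules Pecam1, F11r and Jam2, the hyaluronan receptor Cd44 and the tetraspanin Cd9. All 33 symbols were found once in each table.

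Integrins are cell surface receptors made of 1 α and 1 β subunit, and the pairing sets what they bind. The β2 integrins of leukocytes bind ICAMs and complement-coated particles, the α4 integrins bind VCAM-1, fibronectin or MAdCAM-1, and α6β1 binds laminin. Selectins and their glycosylated ligands let leukocytes roll on vessel walls, whereas CD44 holds hyaluronan and tetraspanins such as CD9 organise other receptors in the membrane. In the peritoneal cavity, resident macrophages are free-floating cells that can attach to the cavity wall or to each other after injury, and CD11b (Itgam) and CD102 (Icam2) are standard surface marks of these cells.

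Total peritoneal cells were taken from mice aged 10 to 14 weeks, 3 days after 1 mg of zymosan, a yeast cell wall preparation, was given to each animal in the peritoneal cavity. The Cd36-/- mice carried LysM-Cre, which is active in macrophages, neutrophils and some other myeloid cells, together with floxed Cd36. The fl/fl mice carried floxed Cd36. Each group was 1 library from a pool of 4 replicates, so the spread between animals was not seen, no difference below has a test, and the intervals cover counting error only.

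The libraries held 16543 (Cd36-/-) and 15537 (fl/fl) barcodes with 116600732 and 117238057 unique molecular identifiers (UMIs, each standing for 1 captured transcript). After filtering, 14931 and 14005 cells were used, of which 297 in each library had a barcode that also occurred in the other. Cd36 itself read 181 CPM (UMIs of a gene per 1000000 UMIs of the class) in Cd36-/- and 276 in fl/fl large peritoneal macrophages. The labels do not name the floxed exons, so 3′ end counts need not show the deletion. Clusters were named from marker genes, with the 33 genes kept out of the clustering, and each name means cells like that type. Each library held 200 cells or more of 8 classes, which were large peritoneal macrophages (LPM, the resident Gata6 type; 3482 and 2859 cells), Gata6-low macrophages (5797 and 4464), MHC class II macrophages (254 and 355), type 2 conventional dendritic cells (cDC2; 313 and 410), B-1 cells (1501 and 2136), B-2 cells (1425 and 2100), T cells (741 and 645) and natural killer (NK) cells (527 and 357). Type 1 conventional dendritic cells (cDC1), neutrophils and stromal cells were rarer.

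Levels are the summed UMIs of a gene over all UMIs of a class and library, in CPM, and every pair of values below is given as Cd36-/- and then fl/fl. UMIs count transcript 3′ ends, so a CPM does not grow with transcript length. Of the 33 genes, 19 reached 20 CPM in at least 1 of the 8 classes, and 10 reached it in all 8: Itga4, Itga6, Itgam, Itgb1, Itgb2, Itgb7, Icam2, Selplg, Cd44 and Cd9. A further 6 reached it only in the rarer classes (Itga1, Itgae, Itgb3, Itgb4, Vcam1 and F11r). The other 8 (Itga3, Itga7, Itga8, Itga9, Itgad, Itgb5, Itgb6 and Itgb8) were under 20 CPM in all 11 classes. Itgb6, the epithelial partner of Itgav, had 0 UMIs in both libraries, which allows up to 0.029 and 0.0281 CPM.

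Itgam, Itgax and Itgad, the α subunits of CD11b, CD11c and CD11d, lie side by side on the plus strand of chromosome 7 (mm10, GENCODE M21: Itgam chr7:128062640-128118491, Itgax chr7:128129547-128150657, Itgad chr7:128154376-128223816), and Itgal, the CD11a subunit, lies nearby on the same strand at chr7:127296260-127335138. The 4 genes share the partner Itgb2 but were not all highest in the same cells, as described next. The 250 bases before the RefSeq start sites (GRCm38.p6) are shown for the neighbours Itgam and Itgax, the former read chiefly in macrophages and the latter in NK cells and dendritic cells. Capitals mark GAGGAA or its reverse complement TTCCTC, letters of the core bound by the myeloid factor PU.1.
Itgam, chr7:128062390-128062639, plus strand: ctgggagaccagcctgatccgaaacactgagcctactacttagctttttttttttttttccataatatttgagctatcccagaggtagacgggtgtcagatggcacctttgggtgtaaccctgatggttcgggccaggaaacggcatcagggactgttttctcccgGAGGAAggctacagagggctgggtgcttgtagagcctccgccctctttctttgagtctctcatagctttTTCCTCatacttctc
Itgax, chr7:128129300-128129549, plus strand: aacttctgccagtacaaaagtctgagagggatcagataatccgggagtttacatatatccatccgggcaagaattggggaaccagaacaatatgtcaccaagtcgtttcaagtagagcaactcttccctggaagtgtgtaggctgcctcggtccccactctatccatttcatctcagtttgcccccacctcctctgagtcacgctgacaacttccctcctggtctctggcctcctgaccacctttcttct
The Itgam window held these letters 2 times and the Itgax window 0 times. Of all 32851 mouse promoter windows of this length, 23.3% held them, as did 8 of the 22 windows found for 20 of the 33 genes. The GATA letters AGATAA or TGATAA were also searched on both strands and are not capitalised above. The Itgax window held them 1 time and the Itgam window 0 times. They occurred in 16.6% of all windows and in 2 of the 22. Matching letters are a description and not evidence of binding.

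Itgb2, the β subunit shared by CD11a to CD11d, was highest in LPM at 846 and 918 CPM and next in Gata6-low macrophages at 457 and 449. MHC class II macrophages (302 and 289) and NK cells (287 and 240) lay in the middle, and the B cell classes were lowest at 63.9 to 70.7. Itgam was the most abundant of its α partners in macrophages, with 960 and 1036 CPM in LPM and 844 and 898 in Gata6-low macrophages. Over the mean of the libraries, Itgam was thus 1.15-fold and Itgb2 1.95-fold higher in LPM than in Gata6-low macrophages. MHC class II macrophages had 261 and 257 CPM of Itgam. Part of the Itgam signal cannot be assigned with certainty, since 22.0% of its 3′ end 31-base words also occur in the overlapping model Gm49368, which had 6.93 and 7.42 CPM over all cells. Exons of other genes lie on the opposite strand at the 3′ ends of Itga4, Itga7, Icam1 and Selp. Whether counting used strand is not given in the sources used here.

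Among the 8 classes, the other CD11 subunits were highest in NK cells and not in LPM. Itgal, the CD11a subunit with which lymphocytes bind ICAMs, was highest in NK cells at 234 and 263 CPM, followed by T cells at 82.9 and 96.4. It was lowest in LPM at 6.88 and 8.3 CPM, against 30.6 and 28.0 in Gata6-low macrophages. Itgax, the CD11c subunit widely used to mark dendritic cells, was higher in NK cells (119 and 146 CPM) than in cDC2 (56.2 and 50.1). In LPM it was at 0.515 and 0.636 CPM and in Gata6-low macrophages at 0.518 and 0.459, the classes where its neighbour Itgam was highest. Elsewhere the patterns overlapped. NK cells also read Itgam, at 127 and 128 CPM, and MHC class II macrophages also read Itgax, at 27.3 and 14.1. Itgad reached 8.54 and 6.18 CPM in NK cells and at most 0.868 in the other 7 classes. Of the Itgad 3′ end words, 7.34% also occur in other genes, Itgax among them.

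**Figure D1:**
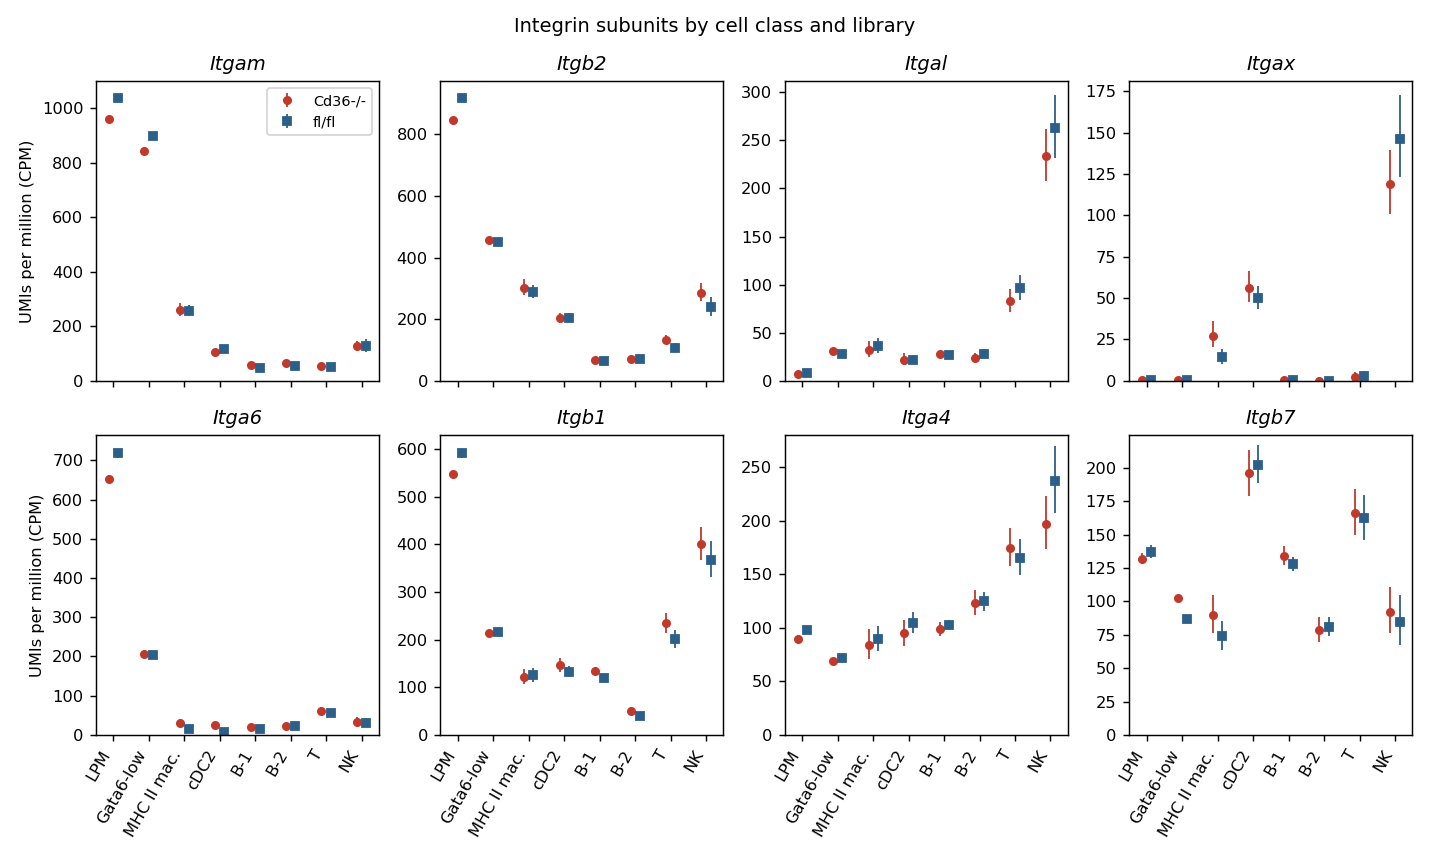
Levels (CPM, linear axes from 0) of 8 integrin subunits in 8 cell classes, each with 200 cells or more per library. Circles are Cd36-/-, squares fl/fl, each 1 library, and bars are exact 95% Poisson intervals of the counts. Itgam, Itgb2 and Itga6 are highest in LPM, Itgal, Itgax and Itga4 in NK cells, and Itgb7 in cDC2.

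At a common depth of 1500 UMIs per cell, 74.3% and 78.7% of LPM had an Itgam UMI and 8.72% and 5.87% of B-1 cells did (98.6% and 98.7% against 30.4% and 29.7% at full depth, with median depths of 7279.5 and 7941 UMIs in LPM and 5583 and 7107.5 in B-1 cells). Thinning left out 28 and 23 LPM and 10 and 5 B-1 cells. Both subunits of the CD11b receptor, Itgam and Itgb2, were read in 52.2% and 56.8% of thinned LPM and in 32.97% and 33.17% of Gata6-low macrophages. If the subunits were read independently of each other, 51.8% and 56.6% of LPM would have had both. Joint detection was thus close to what the separate shares give. In NK cells, Itgal with Itgb2 was read in 11.8% and 9.33% of thinned cells, and Itgax with Itgb2 in 5.98% and 6.12%. Median depths were 2177 and 2499 UMIs in NK cells and 2633 and 3259 in T cells. Cells under 1500 UMIs were left out, so the thinned shares of these 2 classes cover their deeper cells only.

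Itgb1 is the β subunit with the most α partners, and it was highest in LPM (547 and 592 CPM), then NK cells (402 and 368), T cells (234 and 201) and Gata6-low macrophages (213 and 216). T cells and Gata6-low macrophages were not separated beyond the range of the libraries, and B-2 cells were lowest at 49.7 and 40.4. Itga6, the laminin-binding α subunit, had 652 and 718 CPM in LPM against 205 and 204 in Gata6-low macrophages and 30.6 and 15.6 in MHC class II macrophages. It thus stepped down across the macrophage classes in both libraries. The Itga6 partner Itgb4, part of epithelial hemidesmosomes, had at most 0.437 CPM in these 8 classes, so Itgb1 was the partner read with it. Both were read in 34.6% and 37.6% of thinned LPM and in 6.85% and 7.03% of Gata6-low macrophages.

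Itga4, the α subunit of VLA-4, was read in every class. It was highest in NK cells (197 and 237 CPM), then T cells (175 and 165) and B-2 cells (124 and 125), and lowest in Gata6-low macrophages (69.4 and 72.1). Its gut-homing partner Itgb7 was highest in cDC2 (196 and 203 CPM) and T cells (166 and 162), and B-1 cells (134 and 128) and LPM (132 and 137) were not separated. In T cells, Itga4 and Itgb1 were read together in 9.85% and 7.92% of thinned cells, where independent reading would give 5.92% and 5.04%. Both libraries thus read the pair together more often than the separate shares give. The T cell class pools subsets that differed in both genes (see the CD4 and CD8 gates below), and their part in this excess was not tested.

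The remaining α subunits were narrower. Itga2, the CD49b subunit used to mark mouse NK cells, had 45.8 and 53.6 CPM in NK cells and 7.32 and 5.21 in T cells. Itgav, a vitronectin and fibronectin receptor subunit, stayed between 6.96 and 22.5 CPM in all 8 classes, with no class clearly first. Itga5, the fibronectin receptor subunit, had its highest mean in MHC class II macrophages at 13.4 and 24.2 CPM, and NK cells at 16.3 and 17.5 lay within that range. Itga9 was read chiefly in LPM at 10.2 and 13.9 CPM. Itgb5 was read in MHC class II macrophages (14.5 and 15.6 CPM) and Gata6-low macrophages (9.9 and 10.1), and in LPM at 1.36 and 1.59.

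Among the ligands, Icam2, which binds CD11a integrin, was highest in LPM at 798 and 710 CPM and in Gata6-low macrophages at 606 and 560. MHC class II macrophages read 88.5 and 53.6. The estimate for RNA set free from broken cells was 140 and 113 CPM there, more than was measured and so too high. Icam1, the inducible ligand of the same integrin, was highest in NK cells (80.0 and 64.9 CPM) and lowest in LPM (14.7 and 14.0). Vcam1 had at most 0.557 CPM in the 8 classes. It reached 24.8 and 21.3 CPM in the stromal cells, on 8 and 7 UMIs.

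Selp, best known from platelets and endothelium, was read almost only in LPM, with 236 and 253 CPM against 23.2 and 26.7 in Gata6-low macrophages and 3.89 to 9.32 in the other classes. The LPM level was 9.82-fold the next highest, the widest such step among the 19 genes. Of 5 platelet markers, the summed level in LPM was 1.4 and 1.23 CPM, with Ppbp at 0 in both libraries, and the 5 endothelial markers summed to 1.18 and 1.35 CPM with Cdh5 at 0 in both. Selplg, the P-selectin ligand PSGL-1, was highest in NK cells at 781 and 763 CPM, followed by LPM (551 and 574), T cells (442 and 447) and Gata6-low macrophages (410 and 411). The receptor was thus read in 1 main class and its ligand in all 8.

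Pecam1, a homophilic adhesion molecule of endothelium and leukocytes, was highest in B-2 cells (60.8 and 62.5 CPM) and B-1 cells (54.9 and 52.8). In LPM it was at 1.58 and 2.90. Jam2, a junctional molecule that binds Jam3 and the α4β1 integrin, was instead highest in Gata6-low macrophages (45.8 and 41.5 CPM) and LPM (18.4 and 17.9). In MHC class II macrophages it was at 1.67 and 3.52. F11r (JAM-A) had at most 6.67 CPM in the 8 classes and 24.8 and 94.4 in stromal cells.

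Cd44 was highest in Gata6-low macrophages at 270 and 312 CPM, and MHC class II macrophages at 199 and 280 overlapped that range. LPM had 154 and 155, and the B cell classes 77.0 to 84.9. Cd9 was instead highest in LPM, with 505 and 454 CPM against 67.3 and 58.8 in Gata6-low macrophages and 39.0 and 30.9 in MHC class II macrophages. NK cells followed LPM with 214 and 219. Neutrophils, with 100 and 130 cells and 78197 and 118618 UMIs in all, read higher than all 8 classes for Cd44 (1177 and 1197 CPM), Cd9 (1164 and 1029) and Itgal (448 and 405).

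The macrophages held 3 LPM clusters, 4 Gata6-low clusters and 1 MHC class II cluster, and both libraries gave the following order. Selp was between 181 and 261 CPM in the LPM clusters and between 17.7 and 41.6 in the Gata6-low clusters. Itga6 was between 565 and 725 CPM in the LPM clusters. The Gata6-low cluster led by Chil3, a chitinase-like gene of recruited and alternatively activated macrophages, came nearest to them in Itga6 (368 and 386 CPM) and in Cd9 (133 and 116). That cluster also had the highest Jam2 (63.0 and 59.2 CPM) and an Icam2 level of 831 and 801, and the lowest Itgal of the Gata6-low clusters (13.7 and 15.6). The cluster led by Folr2, a folate receptor gene, held the highest Cd44 of the 8 (317 and 375 CPM) and the highest Itgal of the Gata6-low clusters (37.7 and 32.8). The LPM cluster led by Cxcl2 had the highest Icam1 of the 8 at 41.4 and 43.0 CPM, against 13.3 and 11.9 in the largest LPM cluster.

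**Figure D2:**
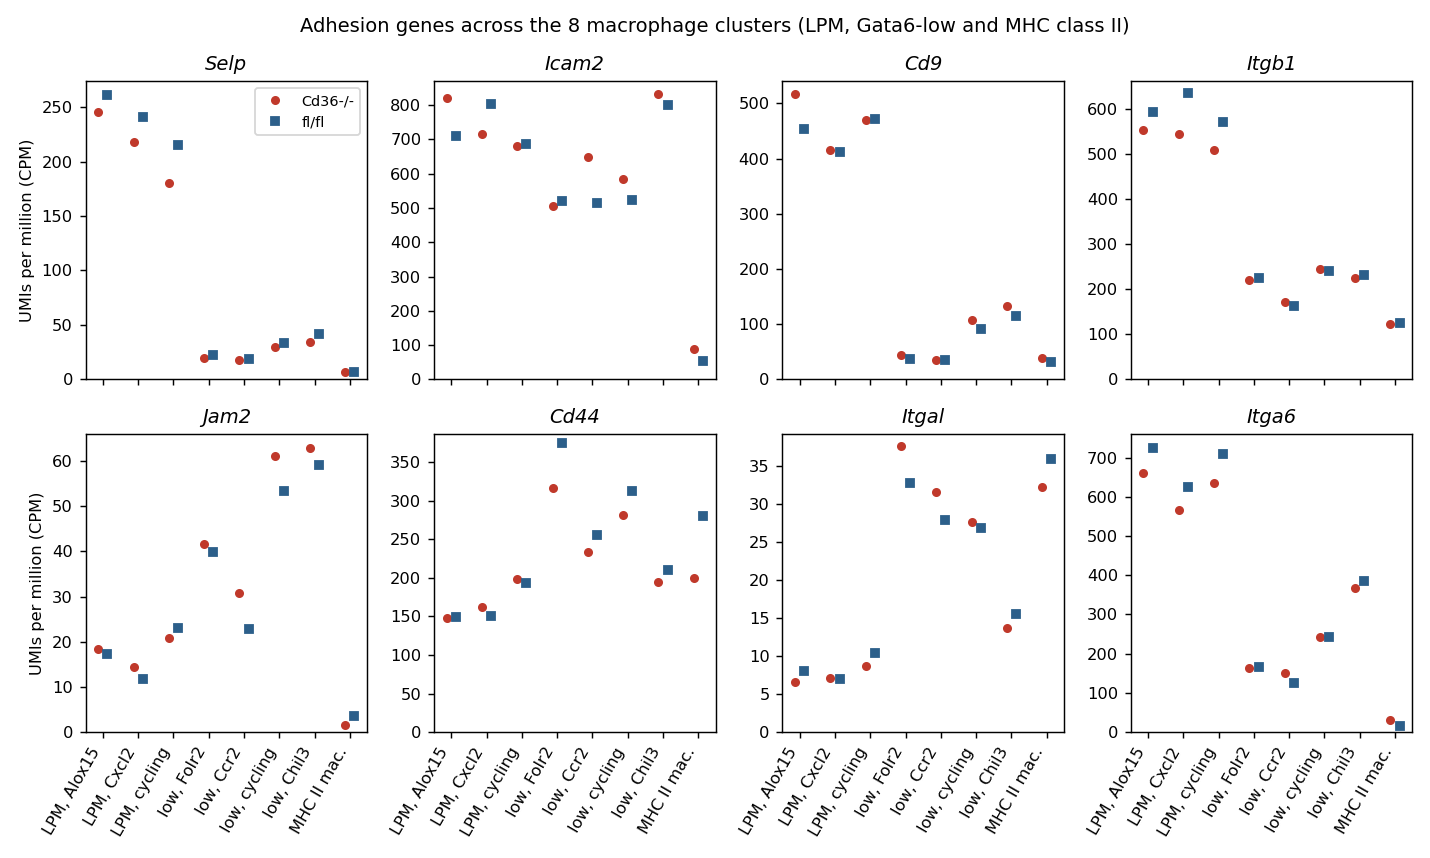
Levels (CPM, linear axes from 0) of 8 adhesion genes in the 8 macrophage clusters, where "low" stands for Gata6-low and the gene named is one of the cluster's leading genes. Circles are Cd36-/-, squares fl/fl. Selp, Cd9, Itgb1 and Itga6 step down from the LPM clusters, and Jam2 peaks in the Gata6-low Chil3 and cycling clusters.

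Transcripts set free from broken cells can be read in droplets of other cells. The C1q genes, made by macrophages, gave the share of such RNA in lymphocytes as 6.81% and 5.81% in B-1 cells, 10.4% and 8.5% in B-2 cells, 10.3% and 7.99% in T cells and 11.4% and 9.85% in NK cells. It was higher in the Cd36-/- library in each of the 4. At these shares, free RNA alone would give B-1 cells 48.2 and 38.5 CPM of Itgam, and 58.3 and 45.6 were measured. In B-2 cells 73.7 and 56.3 CPM would come from it and 63.9 and 54.2 were measured, and in T cells 73.0 and 52.9 against 53.6 and 50.4. The Itgam and Itga6 levels of B-2 cells and the Itgam level of T cells were therefore no higher than this background. Itga6 was close to it in B-1 cells (20.1 and 16.1 CPM against 19.5 and 15.5) and in NK cells (33.4 and 29.9 against 32.7 and 26.3). For Itgam in NK cells the estimate was 80.9 and 65.2 CPM against 127 and 128 measured. Itga4, Itgal, Itgb7 and Pecam1 stood well above it in all 4 lymphocyte classes, for example Pecam1 in B-1 cells at 54.9 and 52.8 CPM against 0.736 and 0.926. In MHC class II macrophages the share, read there from B cell genes, was 26.0% in each library. It would give 74.2 and 69.5 CPM of Itga6, 140 and 113 of Icam2 and 48.4 and 39.9 of Cd9, and the measured levels of all 3 lay under these values. Free RNA cannot exceed what was measured, so this share is too high for the class. The same goes for the Itgam estimates of B-2 and T cells.

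**Figure D3:**
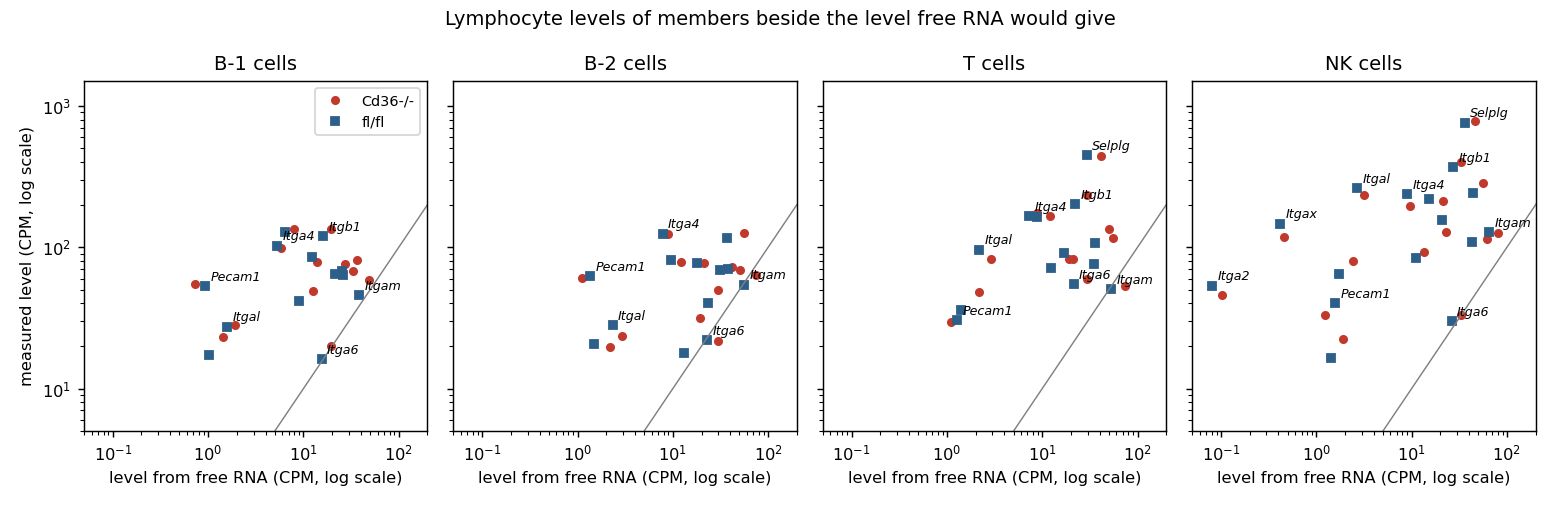
Measured level of each gene at 20 CPM or more (vertical axis, CPM, log scale) beside the level that free RNA alone would give (horizontal axis, CPM, log scale) in 4 lymphocyte classes. Circles are Cd36-/-, squares fl/fl, and the line marks equality; Itgam and Itga6 lie near it in the B cell classes and Itgal, Itga4 and Pecam1 far above.

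The libraries were compared gene by gene where a gene had at least 20 CPM in 1 of them, as the log2 ratio of Cd36-/- over fl/fl with its 95% counting interval. In LPM, 12 of the 33 genes were compared, 3 were higher and 9 lower in Cd36-/-, and 0 were at least 25% higher or, by the same ratio, 20% lower, limits that describe size only. Of all 4544 genes compared, 2.55% were that much higher, 3.98% were that much lower and 48.7% were higher by any amount. The median log2 ratio was -0.08 over the 12 genes and -0.0049 over all genes. Itga6 (-0.14, from -0.17 to -0.11) and Icam2 (0.17, from 0.14 to 0.20) were the ends of the range. The integrin subunits Itgam (-0.11, from -0.13 to -0.08), Itgb2 (-0.12, from -0.14 to -0.09) and Itgb1 (-0.11, from -0.15 to -0.08) lay together just below 0. Differences in LPM were thus small next to these limits.

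In Gata6-low macrophages, 14 genes were compared, with 8 higher and 6 lower and medians of 0.02 over these and -0.02 over all genes. Icam1 was the 1 gene past these limits, at 20.7 and 15.8 CPM, a log2 ratio of 0.39 (0.26 to 0.53). Of all 4609 genes, 1.78% were that much higher, 3.15% were that much lower and 44.5% were higher by any amount. Itgb7 (102 and 86.9 CPM, log2 ratio 0.23) and Cd44 (270 and 312 CPM, log2 ratio -0.21) came next in each direction. Itgb2 (0.02, from -0.0039 to 0.05) and Selplg (-0.0035, from -0.03 to 0.02) had intervals that held 0.

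**Figure D4:**
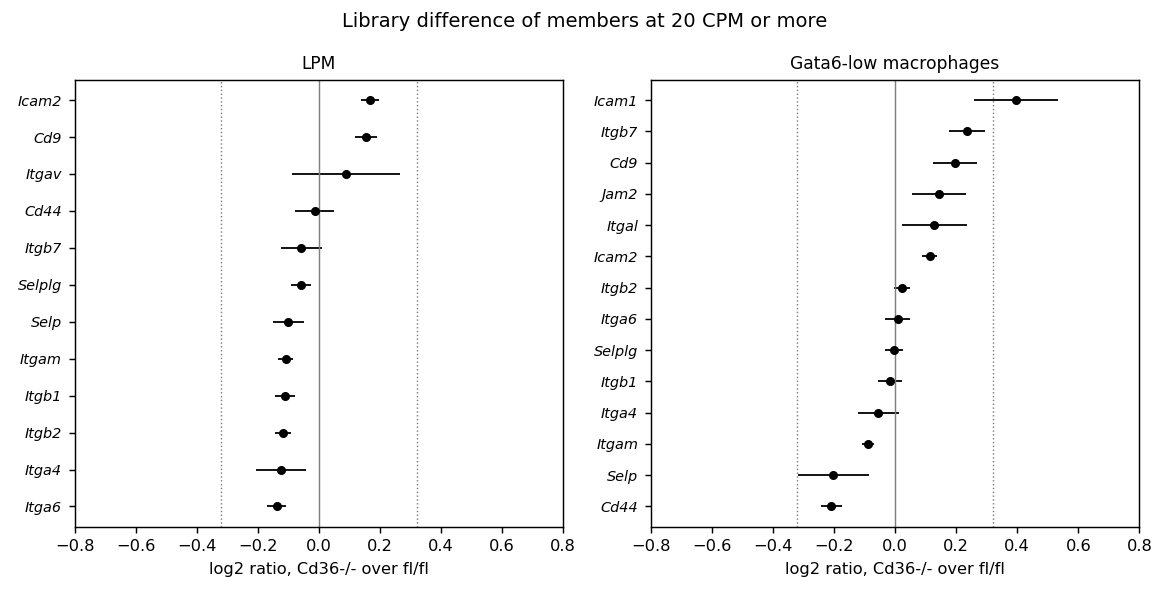
Log2 ratio of Cd36-/- over fl/fl (horizontal axis) of each gene at 20 CPM or more in LPM and Gata6-low macrophages, with exact 95% counting intervals. Dotted lines mark 25% higher and 20% lower; all 12 genes of LPM lie between them, and Icam1 lies past them in Gata6-low macrophages.

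In MHC class II macrophages, 14 genes were compared and 5 were at least 25% higher and 2 at least 20% lower, where 11.3% of all genes were higher and 11.3% lower. Itga6 (30.6 and 15.6 CPM, log2 ratio 0.97, from 0.36 to 1.60), Itgax (27.3 and 14.1 CPM, 0.96, from 0.31 to 1.62) and Icam2 (88.5 and 53.6 CPM, 0.73, from 0.39 to 1.07) were higher in Cd36-/-. Cd44 was lower, at 199 and 280 CPM (-0.49, from -0.68 to -0.30), as was Itga5 at 13.4 and 24.2 (-0.86, from -1.60 to -0.16). The intervals of Icam1 (0.45) and Cd9 (0.34) held 0. The free RNA estimates of Itga6, Icam2 and Cd9 exceeded the measured levels in both libraries, so these estimates are too high here. Subtraction therefore left nothing of these genes and cannot show how much of their ratios is free RNA. Itgax kept a log2 ratio of 1.02. The 7 LPM markers summed to 249 and 155 CPM in this class, none of them at 0, and the 6 cDC2 markers to 329 and 202, so both moved the same way as Itga6, Icam2 and Itgax. Their part in these differences was not tested.

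In cDC2, 13 genes were compared and 2 were past the higher and 0 past the lower limit, where 10.5% of all genes were higher and 6.24% lower. Itga6 was at 24.6 and 8.4 CPM, a log2 ratio of 1.55 (0.93 to 2.20), but 0.22 when the cells were gated directly on marker genes. Icam2 was at 68.9 and 47.9 CPM (0.52, from 0.22 to 0.82). The LPM markers summed to 179 and 143 CPM here, the 7 T cell markers to 319 and 153 and the 7 B cell markers to 2133 and 1832, with none at 0. Their part in these differences was not tested.

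Among lymphocytes, B-1 cells had 2 of 13 genes past the higher and 0 past the lower limit, beside 4.2% and 4.25% of all genes. These were Icam1 (23.0 and 17.2 CPM, 0.42, from 0.16 to 0.67) and Itgam (58.3 and 45.6 CPM, 0.35, from 0.19 to 0.51), the latter close to its free RNA level in both libraries. B-2 cells had 1 of 13 past the higher and 0 past the lower limit, beside 7.69% and 5.7%. This was Cd9 at 31.5 and 17.7 CPM (0.83, from 0.44 to 1.23), for which free RNA would give 19.4 and 13.04. In T cells 2 of 13 genes were past the higher and 0 past the lower limit, beside 15.9% and 7.52%, namely Icam2 (116 and 76.0 CPM, 0.61, from 0.32 to 0.89; 55.6 and 34.8 from free RNA) and Icam1 (48.1 and 36.0 CPM, 0.42, with an interval that held 0). In NK cells Itgav was the 1 of 16 genes past the higher limit (22.5 and 16.5 CPM) and 0 were past the lower, beside 19.9% and 15.4%, and its interval held 0. The summed macrophage markers were higher in Cd36-/- in all 4 of these classes, for example at 490 and 343 CPM in B-1 cells and 710 and 448 in T cells.

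**Figure D5:**
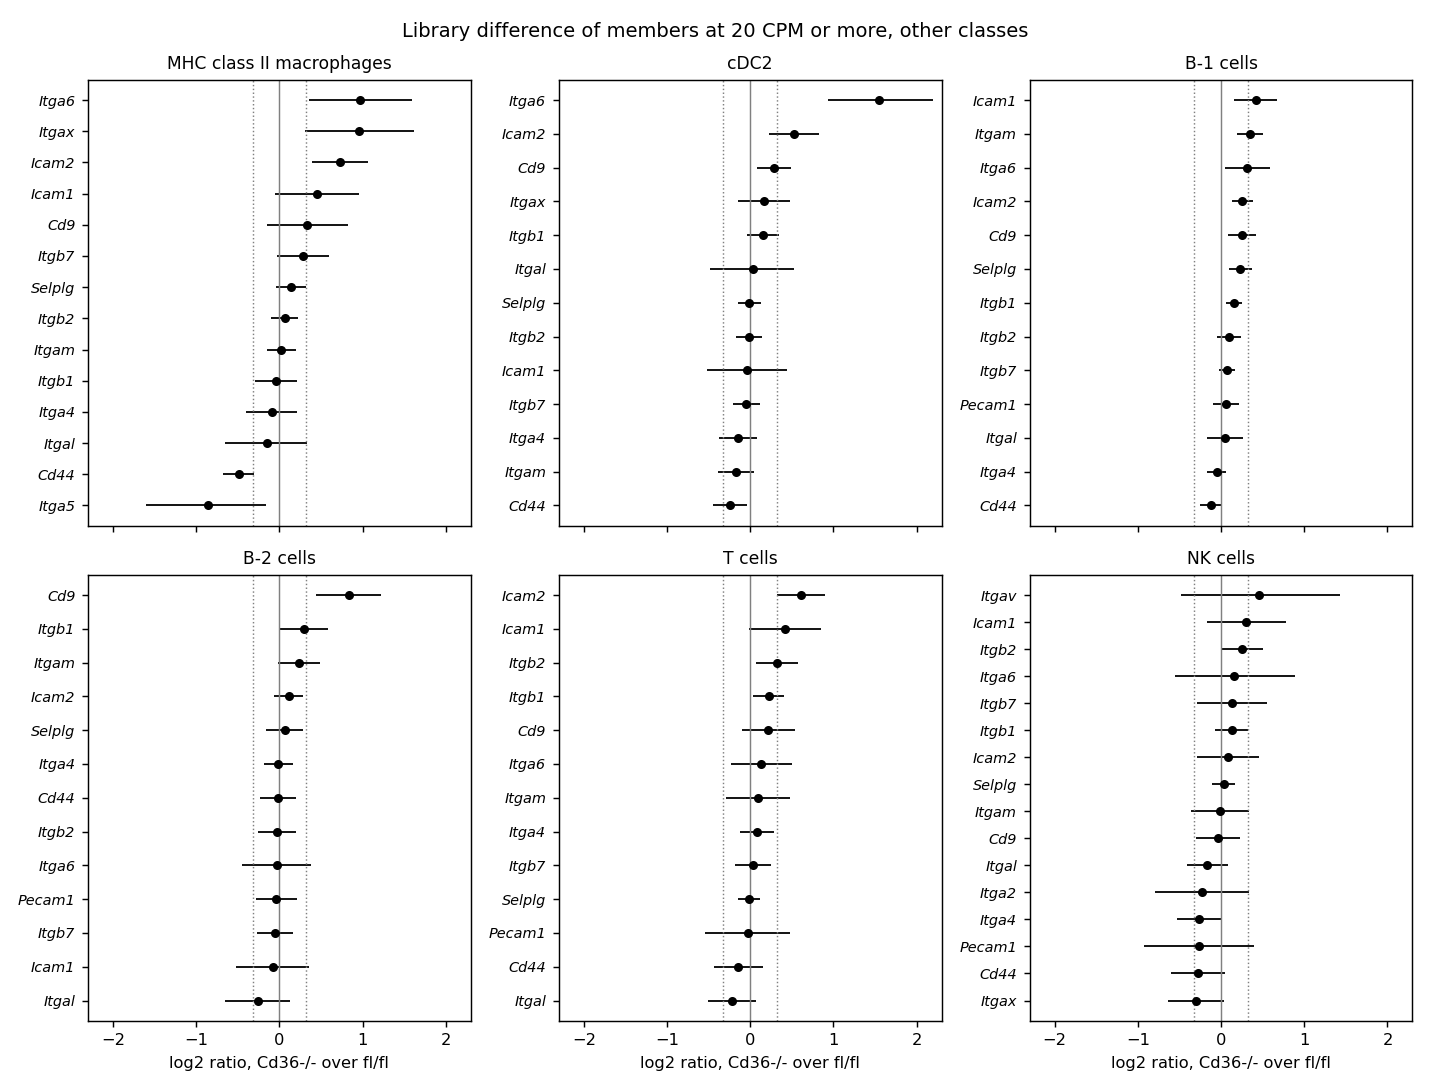
Log2 ratio of Cd36-/- over fl/fl (horizontal axis) of each gene at 20 CPM or more in 6 other classes, with exact 95% counting intervals and dotted lines at 25% higher and 20% lower. Intervals are wider than in the large macrophage classes, and Itga6 in cDC2 has the highest ratio.

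Across the 8 classes, Icam2 was higher in Cd36-/- in 8 of 8, with log2 ratios from 0.08 to 0.73, and Cd44 was lower in 8 of 8, from -0.49 to -0.01. How many of all genes kept 1 sign in all 8 classes was not counted. Once free RNA was subtracted, the Icam2 ratio was below 0 in B-2 cells (-0.19) and NK cells (-0.32). Icam2 then had 732 and 657 CPM in LPM, 545 and 514 in Gata6-low macrophages, 60.2 and 41.2 in T cells and 45.0 and 43.2 in B-1 cells. Nothing of it was left in MHC class II macrophages, where the estimate was too high, and subtraction was not run for cDC2. Cd9 was higher in 7 of 8 and Itga4 lower in 7 of 8. The classes come from the same pair of libraries and share their free RNA, so they are not independent repeats.

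The adaptor list, 25 genes that link integrin tails to the cytoskeleton or switch integrins on, had 18 genes compared in LPM, of which 5 were higher and 13 lower, with a median log2 ratio of -0.06. Of all genes compared there, 48.7% were higher, 2.55% past the higher limit and 3.98% past the lower. In Gata6-low macrophages 3.15% of all genes were past the lower limit. The 1 adaptor past the limits was Parvb, the β-parvin that joins integrin-linked kinase to actin, at 76.6 and 104 CPM in LPM (-0.44, from -0.52 to -0.36) and 29.3 and 47.5 in Gata6-low macrophages (-0.70, from -0.79 to -0.60). Talin 1 (Tln1), which binds β tails, was at 613 and 635 CPM in LPM, and the small GTPase Rap1b, which switches integrins on, at 773 and 634 (0.29, from 0.26 to 0.32). Kindlin-3 (Fermt3), the leukocyte kindlin, was at 221 and 239.

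Of 22 matrix and soluble integrin ligands, 5 were compared in LPM and 5 were lower in Cd36-/-, with a median of -0.18, and 3 in Gata6-low macrophages, where 3 were lower, with a median of -0.15. In the other 6 classes the medians were from 0.14 to 0.51, each over only 2 to 4 genes. In NK cells 3 were past the higher and 1 past the lower limit, beside 19.9% and 15.4% of all genes. Higher were 2 of 3 in MHC class II macrophages and in cDC2, 3 of 3 in B-1 cells, 2 of 2 in B-2 cells and in T cells and 3 of 4 in NK cells. Of all genes compared, 53.1% to 61.0% were higher in these 6 classes, 48.7% in LPM and 44.5% in Gata6-low macrophages. The free RNA share was higher in Cd36-/- in the 4 lymphocyte classes, and its part in these counts was not tested. Fibronectin (Fn1) was by far the highest of these ligands, at 9620 and 9951 CPM in LPM. Thrombospondin 1 (Thbs1), which also binds CD36, was at 282.7 and 392.1 CPM in Gata6-low macrophages (-0.47, from -0.50 to -0.44). In LPM the ones past the lower limit were osteopontin (Spp1, at 28.5 and 44.1 CPM, -0.63) and Tgfbi (148 and 188, -0.34). Of all genes compared in LPM, 3.98% were past that limit.

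Of 12 other tetraspanins, 11 were compared in LPM, with 9 higher and 2 lower and a median of 0.04, beside 48.7% of all genes higher. The 2 past the limits were Cd63, a late endosome tetraspanin, at 113 and 87.5 CPM (0.37, from 0.30 to 0.45), and Tspan13 at 32.4 and 40.8 (-0.33, from -0.46 to -0.20). In MHC class II macrophages 8 of 9 were higher, 4 of them past the higher limit and 1 past the lower, with a median of 0.31. Of all genes compared in that class, 53.1% were higher and 11.3% lay past each limit. Cd81, part of the B cell co-receptor, was at 181 and 127 CPM there (0.51, from 0.28 to 0.74). Of 17 other adhesion receptors, 3 were compared in LPM and 3 were lower, 1 of them past the lower limit. Of all genes compared in LPM, 2.55% were past the higher and 3.98% past the lower limit. Of 9 enzymes that build selectin ligands, 3 were compared in LPM, with 2 higher, 1 lower and 0 past the limits.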

How the data were processed

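Per the labels' protocols, 3′ end libraries were made from total peritoneal cells by the v2 chemistry of 10x Genomics, 1 per group. What the authors deposited are counts of UMIs for each gene in each barcode, with no normalization. Cell Ranger and mm10 are named in the submitters' processing notes, and software version 3.0.0 in the file headers. Annotation release and other settings are not given in the sources used here.

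Barcodes with at least 200 genes and at most 10% mitochondrial UMIs were kept, which left 16000 and 14733. Doublets were found with Scrublet (scanpy 1.11.5), 1069 in Cd36-/- and 728 in fl/fl, and removed. Cells of both libraries were clustered together (2000 variable genes, 40 principal components, 20 neighbours, Leiden with leidenalg 0.10.2 at resolution 1). The 33 genes, the 5 pathway lists, Cd36, Lyz1, Lyz2, sex-linked, mitochondrial, ribosomal and immunoglobulin or T cell receptor genes were left out of this step. It gave 19 clusters, of which 2 (683 and 464 cells) stayed unnamed. Gata6-low macrophages are the macrophage clusters that remained after LPM and MHC class II macrophages were named. The stromal cluster also held mesothelial and pancreatic genes.

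UMIs were summed per class and library. Intervals are exact at 95% (Poisson for CPM, conditional binomial for ratios) and cover counting error only; a count of 0 allows up to 3 counts. Limits of 20 CPM and of 25% higher or 20% lower describe size only, since 1 library per group allows no test. Thinning took each cell to 1500 UMIs. The share of free RNA in a class is its level of genes it should lack (C1qa, C1qb and C1qc in lymphocytes) over that in the whole library. The ratio step was tested on simulated counts.

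The text gives values for genes at 20 CPM or more in a class with at least 200 cells per library. For the library comparison it names those past these limits, in order of the interval bound nearest to 0, and those with narrow intervals. At most 4 genes of each list were named by the same ranking, except Tln1, Fermt3 and Fn1, which were added for their level after their values were seen. The 33 genes and the lists were chosen with earlier results of these data known. The values of 1 gene of these lists are not reported here. Promoter sequences are from RefSeq.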

Additional observations from a re-analysis of the deposited data

How the results depend on the processing

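No paired analysis was possible because each group is 1 library. Alternatives were stricter or looser cell filters (a minimum of 500 genes per cell, 5% or 20% as the mitochondrial limit, doublets left in), other classes (resolution 2, the adhesion genes kept in the clustering, cells gated on markers), free RNA subtracted (not run for cDC2, where B cell genes read 4493 and 3545 CPM against 3727 and 5371 in the whole libraries), other scalings, and comparison from 10 or 50 CPM. Each of the 19 genes that reached 20 CPM kept its highest class under every alternative that could be compared, except Itgav under the mean of each cell's CPM and under totals without mitochondrial, ribosomal and immunoglobulin genes. Of 234 counts at other settings, 193 stayed within the limit of 1.5 times and 41 did not, all of them counts of at most 5 genes; the cause was not tested beyond what each setting changes. Counts of genes at least 25% higher became, for Gata6-low macrophages, 0 after free RNA subtraction and from 50 CPM and 2 with mean cell CPM. Subtraction left Icam1 there at 18.4 and 13.9 CPM, under the 20 CPM limit, with a log2 ratio of 0.40. For MHC class II macrophages they became 3 after subtraction, without Itga6, Icam2 and Cd9, and 1 from 50 CPM, where the lower count also became 1. For cDC2 they became 1 in gated cells and from 50 CPM, and 4 with reduced totals and from 10 CPM. For B-1 cells they became 1 with at least 500 genes, with either mitochondrial limit, with doublets kept, after subtraction and from 50 CPM, and 4 with mean cell CPM. For B-2 cells they became 2 with at least 500 genes, the 20% limit, resolution 2 and mean cell CPM, and 0 after subtraction, which left Cd9 at 12.2 and 4.67 CPM with a log2 ratio of 1.38, and from 50 CPM. For T cells they became 1 in gated cells and from 50 CPM, and for NK cells 2 with doublets kept and 0 from 50 CPM. Counts of lower genes became 1 in LPM with reduced totals and from 10 CPM, 1 in cDC2 and in T cells with mean cell CPM, reduced totals and from 10 CPM, and 2 in B-2 cells after subtraction. In NK cells the lower count became 1 in gated cells and 2 after subtraction, with mean cell CPM, with reduced totals and with the median ratio set to 0. Cd9 in MHC class II macrophages: log2 ratio changed sign, to -0.0696, with at least 500 genes. Of the 1396 single ratios at other settings, 1323 moved by less than the counting interval. Shares of cells with both subunits rose with depth, in LPM of Cd36-/- from 52.2% to 84.8% for Itgam with Itgb2 when cells were thinned to 3000 UMIs. Depth limits the NK cell values most among the 8 classes, since 1 UMI in NK cells is worth 0.777 CPM in Cd36-/- and 1.03 in fl/fl, and neutrophil values rest on few UMIs per cell.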

Other observations

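Some of the 33 genes reached 20 CPM only in classes too small for the comparison. In cDC1 (38 and 34 cells), Itgae, the CD103 subunit that binds E-cadherin and is known from cross-presenting dendritic cells, was at 26.7 and 49.1 CPM on 10 and 23 UMIs, and its partner Itgb7 at 208 and 196. Itga1, a collagen receptor subunit, was at 29.4 and 23.5 CPM there on 11 UMIs in each library. In the stromal cells (70 and 51 cells), Itgb3 was at 3.1 and 33.5 CPM and Itgb4 at 12.4 and 21.3, on at most 11 UMIs each. Itgam was at 809 and 451 CPM and Icam2 at 614 and 238 in the same stromal cells, where all 8 macrophage markers were at 20 CPM or more, at a mean of 0.499 of their level in the highest cluster.

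T cells gated on Cd4 or Cd8 markers differed in the α4 integrins. Itgb1 was at 380 and 482 CPM in the CD4 gate (82 and 80 cells) and at 165 and 104 in the CD8 gate (206 and 169 cells), and the values of the gates did not overlap. Itgb7 was at 292 and 224 CPM against 82.4 and 82.5, and Itga4 at 228 and 220 against 132 and 119. Selplg was at 368 and 364 CPM against 432 and 399. These values rest on 1 library per group and have no test.

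In NK cells, osteopontin (Spp1), a soluble ligand of αv and α4 integrins, was at 49.7 and 6.18 CPM, a log2 ratio of 3.01. The fl/fl value rests on few UMIs, since 1 UMI was worth 1.03 CPM there and 0.777 in Cd36-/-. Past the higher limit were 19.9% of all genes in this class, and 15.4% were past the lower. The direction in LPM was the opposite, with Spp1 lower in Cd36-/-. This difference between the libraries has no test.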
